A study of Homo sapiens with 6 samples.

Results

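The genes described are the translation initiation and elongation factors of the human genome, 59 of the 60448 genes in the deposited tables. They were chosen by name: every gene whose symbol starts with EIF1 to EIF6 or with EEF1 or EEF2, leaving out the EIF2AK kinases, EIF1AY, antisense names and names that end like those of pseudogenes. The rule left out 148 other names, most of them pseudogene names. The eIF4E-binding protein genes EIF4EBP1, EIF4EBP2 and EIF4EBP3 were left out as well, because their names end in the same way. Of the 59 members, 24 are elongation factor (EEF) or eIF3 genes and 35 are other EIF genes. Besides the factors themselves the rule takes in the enzymes EEF2K and EEF2KMT, the transporter EIF4ENIF1 and EIF1AD, which is not itself a translation factor. It also takes in the readthrough gene EEF1E1-BLOC1S5 and the noncoding transcript EIF2B5-IT1.

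The study measured newly made RNA by 4sU-seq, in which cells take up the uridine analogue 4-thiouridine and the RNA that carries it is collected and sequenced. The cells were RPE1, an immortalised human line of retinal epithelial origin, in 3 groups of 2 libraries each. The first group carried a knockdown of NuMA (called TDIF in the labels), a protein of the mitotic spindle poles encoded by NUMA1, and received doxycycline and hydrogen peroxide (H2O2). The second was wild type without doxycycline and with H2O2, and the third was wild type without either agent. Only knockdown cells had doxycycline, so the drug and the knockdown cannot be told apart, and knockdown cells without H2O2 were not analysed here. The labels give no dose or time and leave unsaid whether the libraries were separate cultures. The p-values therefore rest on how far libraries of a group differ, a spread that may be technical. The error they imply was mostly close to that of genes with similar counts. It may therefore not be the spread of each gene's own libraries.

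Translation starts when eIF4F binds the cap of an mRNA and eIF2 brings the initiator tRNA to the small ribosomal subunit, which eIF3, eIF1 and eIF1A help to load and scan to the start codon. eIF2B recharges eIF2 with GTP, eIF5 and eIF5B lead to joining of the large subunit, and eEF1 and eEF2 then carry each step of elongation. Many mRNAs of elongation factors, of some eIF3 subunits and of ribosomal proteins start with a 5′ terminal oligopyrimidine (TOP) tract, a C followed by further C or T bases, through which LARP1 and mTOR signalling control their translation.

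The first bases of the RNA are shown because they split the members in a way that the naming rule did not use. In the RefSeq promoter windows (build GRCh38.p14), 48 members had an entry and 13 of them (27.1%) had a start whose first base was a C followed by at least 4 more pyrimidines. The same held for 5.14% of all 27305 symbols in that table. It held for 7 of 15 EEF and eIF3 members (46.7%) and for 6 of 33 other EIF members (18.2%). EEF1D, EIF3A, EIF3E, EIF3G, EIF3H and EIF3L were among the members without an entry, so these shares may be incomplete. Windows run from 10 bases before to 20 bases from the annotated first base, and capitals mark the pyrimidine run from that base.
EEF1A1 (chr6:73521013-73521042, minus strand): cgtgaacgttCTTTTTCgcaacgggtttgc
EEF2 (chr19:3985444-3985473, minus strand): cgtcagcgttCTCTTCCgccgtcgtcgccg
EEF1B2 (chr2:206159885-206159914, plus strand): ctcttcgggtCCTTTTTCCTCTCTTCagcg
EIF3F (chr11:7987327-7987356, plus strand): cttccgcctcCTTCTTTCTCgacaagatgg
EIF3K (chr19:38619178-38619207, plus strand): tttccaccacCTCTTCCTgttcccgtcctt
EIF4A2 (chr3:186783567-186783596, plus strand): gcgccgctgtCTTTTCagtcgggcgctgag
EIF4B (chr12:53006446-53006475, plus strand): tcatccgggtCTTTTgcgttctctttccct
EIF2S3 (chrX:24054946-24054975, plus strand): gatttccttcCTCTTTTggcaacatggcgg
For comparison, the annotated starts of 2 members without such a run were the following.
EIF4A1 (chr17:7572815-7572844, plus strand): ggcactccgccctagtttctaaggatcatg
EIF5B (chr2:99337379-99337408, plus strand): ctgagaactcacaccatatgtgtcctgttc

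Each table holds 1 value per gene and group, pooled over the 2 libraries, so no value per library can be given. Mean counts recovered from these values summed to 16827839 per library in knockdown, 18341697 in H2O2-treated wild type and 14786575.5 in untreated wild type cells. The authors' log2 fold changes were not scaled for depth. Their median over genes of 50 or more mean counts was 0.29 for H2O2 and -0.29 for the knockdown, a factor of 1.22 in both. The log2 ratio of the summed counts was 0.31 for H2O2 but -0.12 for the knockdown, so there the median gene shifted by more than the depth. Log2 changes below are given from that median, a choice of scale, and ± is the standard error implied by the deposited p-value. Rose and fell are used of genes where the Benjamini-Hochberg adjusted p over all tested genes was under 0.05 both in the authors' deposited test and in a normal test after centring. The adjusted p-values printed here are those after centring unless the deposited test is named. NUMA1 had mean counts of 933.5 in knockdown, 1571 in H2O2-treated wild type and 1168 in untreated wild type cells, and fell by 0.46 ± 0.12 in the knockdown (adjusted p = 0.00114). Of 8 markers of retinal pigment epithelium, RPE65, RLBP1, TYR and TYRP1 were at 6 mean counts or fewer in every group. The other 4 were detected. MITF, OTX2, BEST1 and PMEL had 583.5, 160.5, 33.5 and 19 mean counts in knockdown cells, 660.5, 166.5, 63 and 23 in H2O2-treated wild type cells, and 674, 387, 4.5 and 14 in untreated wild type cells. Summed counts of all 8 were 801 in knockdown, 921 in H2O2-treated and 1080.5 in untreated wild type cells. Summed counts of 4 simple epithelium markers were 29152.5, 43575 and 19573 in knockdown, H2O2-treated and untreated wild type cells, mostly KRT8 (22186, 35005 and 13889.5). Those of 6 fibroblast markers were 3918, 5668.5 and 1233.5, mostly PDGFRB (2405, 3987 and 407.5) and COL1A1 (1382.5, 1250.5 and 535.5). FAP (114.5, 395 and 232) was also higher after H2O2, but COL3A1 (0.5, 6 and 20) and DCN (12.5, 19.5 and 31) were lower. COL1A2 (3, 10.5 and 7.5) had too few counts to give a direction. These marker counts are not scaled for depth, which differed between the groups. Sums of 5 neuron markers were 197, 357.5 and 108.5, and of 5 immune markers 48, 46 and 20.5. The part of these shifts in the changes below was not tested.

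Of the 59 members, 53 were tested by the authors in both comparisons, and 51 of these had at least 50 mean counts. EIF4E3 and EIF5AL1 were tested at lower counts. The other 6 had no test: EEF1A2, EIF2S3L and EIF4E1B had at most 6 mean counts in any group, and EEF1G, EEF1E1-BLOC1S5 and EIF2B5-IT1 were listed at 0 in all 3 groups. EEF1G encodes the gamma subunit of the eEF1 exchange complex, and 99.9% of its exon bases are shared on the same strand with RP11-864I4.1, which had 74 mean counts in knockdown, 58.5 in H2O2-treated and 199.5 in untreated wild type cells. The value of 0 is therefore reported as uncertain.

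In wild type cells treated with H2O2, 12 of the 53 tested members were called against untreated cells, 6 higher and 6 lower. Among all 18522 genes tested, 26.2% were called, 16.6% higher and 9.6% lower, and among those with at least 50 mean counts 34.6% were called, 21.2% higher and 13.4% lower. The higher members were EIF4A1, EIF3CL, EIF3C, EIF4G2, EIF4A2 and EIF1AX, and the lower ones were EIF2B4, EIF3G, EIF4E2, EIF6, EIF2B5 and EIF3K. The median log2 change of the tested members was -0.10, beside 0.05 over all tested genes. The deposited test alone called 15 members higher and 6 lower, where it called 36.3% of all tested genes, 26.7% higher and 9.6% lower. The centred test alone called 6 members higher and 13 lower, where it called 32.3% of all tested genes, 16.6% higher and 15.8% lower. The balance of directions thus depended on the scaling. Past the deposited test only, and higher, were EEF1A1, EEF2K, EIF2S3, EIF3A, EIF3L, EIF4B, EIF4E, EIF4G1 and EIF4G3. Past the centred test only, and lower, were EEF1D, EEF1E1, EIF1AD, EIF1B, EIF2B2, EIF3D and EIF5.

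In the knockdown, 22 of the 53 tested members were called against wild type cells that also had H2O2, 7 higher and 15 lower. Among all 18266 genes tested, 21.2% were called, 6.81% higher and 14.4% lower, and among those with at least 50 mean counts 31.6% were called, 10.1% higher and 21.5% lower. EIF3G, EEF2, EIF4E2, EIF2B3, EIF3F, EIF6 and EIF3E rose. EIF4A1, EEF2KMT, EIF3A, EIF3L, EIF4G3, EIF5B, EIF4ENIF1, EIF3C, EIF2S3, EIF4G2, EIF2S1, EIF5, EIF4E, EIF1AX and EIF2S2 fell. The median log2 change of the tested members was -0.01, beside 0.02 over all tested genes. Here the deposited test alone called 7 members higher and 26 lower, beside 34.8% of all tested genes, 6.81% higher and 28.0% lower. With the centred test alone 17 members were higher and 15 lower, beside 29.9% of all tested genes, 15.5% higher and 14.4% lower. Past the deposited test only, and lower, were EEF1B2, EEF2K, EIF1AD, EIF1B, EIF2A, EIF2B1, EIF3J, EIF4B, EIF4G1, EIF4H and EIF5A2. Past the centred test only, and higher, were EEF1A1, EEF1D, EIF1, EIF2B4, EIF2D, EIF3B, EIF3D, EIF3I, EIF3K and EIF5A.

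**Figure D1:**
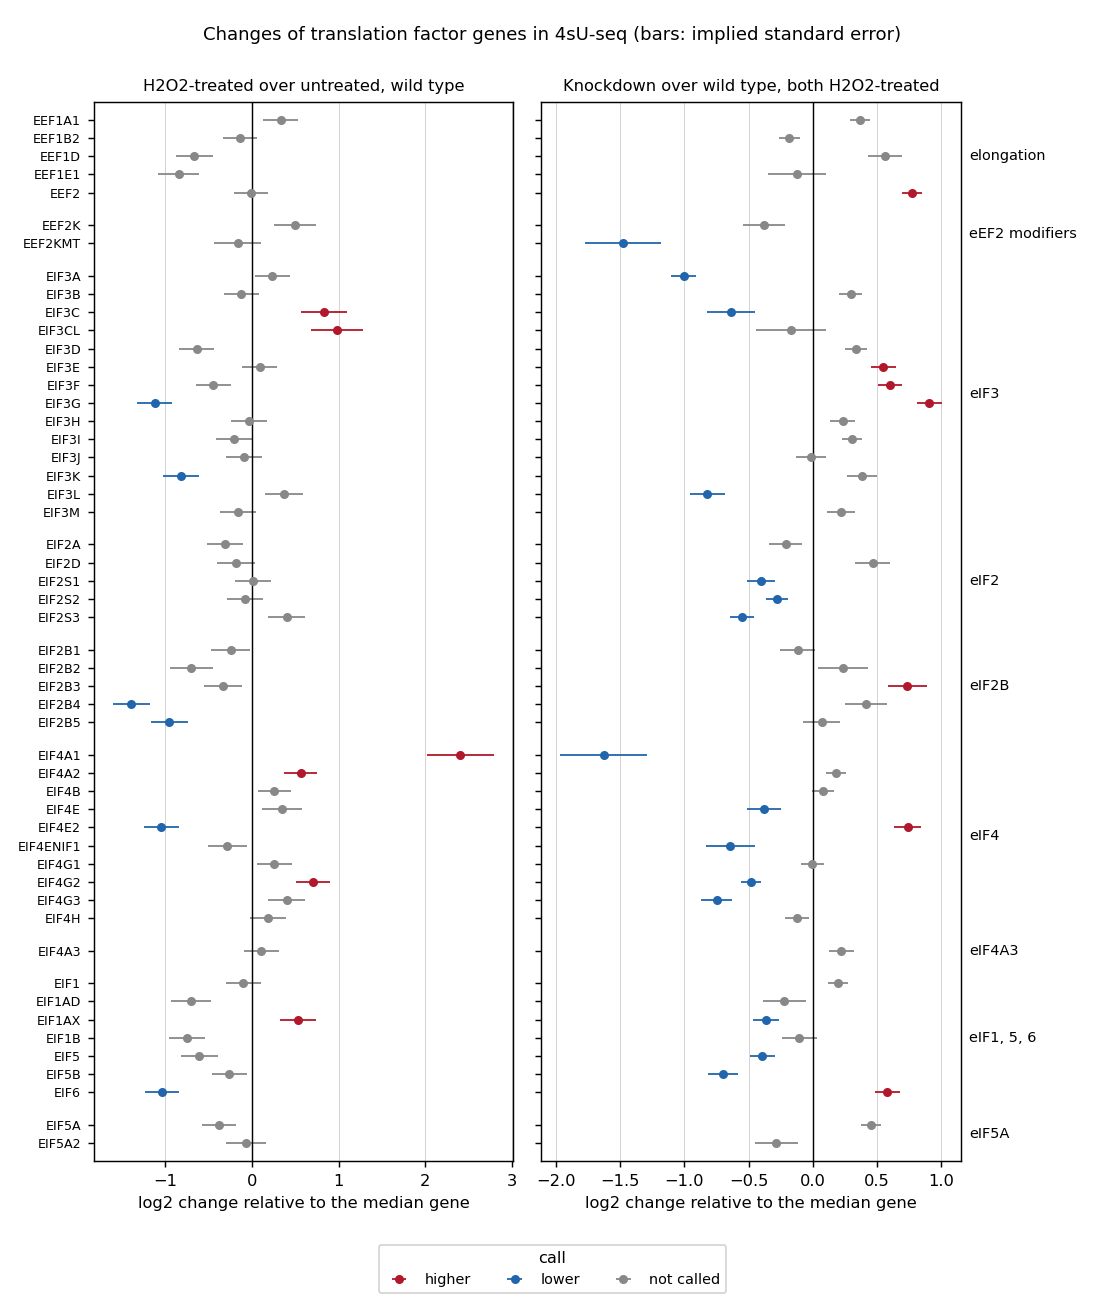
Log2 change relative to the median gene (x axis) of the 51 members with at least 50 mean counts (rows, grouped by role), for H2O2-treated over untreated wild type cells on the left and knockdown over wild type cells, both with H2O2, on the right. Points are changes and bars the implied standard error; red and blue points passed both tests, and EIF4A1 lies farthest to the right on the left (2.40) and farthest to the left on the right (-1.63).

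EEF1A1 and EEF2 had the highest mean counts of all members in every group. They also had the highest levels on the scale of mean counts per kilobase, adjusted to the median gene. That scale takes the mean length of the annotated transcripts, 859 bases for EEF2 and 1922 for EEF1A1. Ranks between genes on it therefore depend on which transcripts are annotated. The other elongation factor genes were lower on both. EEF1D had levels of 1299 in knockdown, 880 in H2O2-treated wild type and 1392 in untreated wild type cells. EEF2, the translocase that moves the ribosome along the mRNA (chr19:3976056-3985469, minus strand, hg38), had a level of 60425 in knockdown, 35400 in H2O2-treated wild type and 35567 in untreated wild type cells. Both wild type values thus lay close together and the knockdown value above them. Its mean counts were 42422.5 in knockdown and 30408.5 in H2O2-treated wild type cells, a rise of 0.77 ± 0.08 on the log2 scale or 1.71-fold (adjusted p = 6.3e-21). After H2O2 its log2 change was -0.01 ± 0.20 (adjusted p = 0.986).

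EEF1A1, which brings aminoacyl-tRNA to the ribosome, had 92950 mean counts in knockdown, 88335 in H2O2-treated wild type and 57231.5 in untreated wild type cells. Its log2 change was 0.36 ± 0.08 in the knockdown and 0.34 ± 0.20 after H2O2, and neither passed both tests. The centred adjusted p was 1.42e-05 in the knockdown, where the deposited test gave 0.513. After H2O2 the centred adjusted p was 0.202 and the deposited one 0.00727, and with the trend of all genes with span removed the change of EEF1A1 was called. EEF1A1 has many near-identical pseudogenes, so its counts are uncertain. EEF1A2, the paralogue of muscle and nerve, had mean counts of 0.5 in knockdown, 3 in H2O2-treated wild type and 2.5 in untreated wild type cells, at or under the floor of 3 counts.

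The subunits of the exchange complex that reloads eEF1A with GTP were not called. EEF1B2 had log2 changes of -0.18 ± 0.08 in the knockdown and -0.14 ± 0.20 after H2O2. In the knockdown it passed the deposited test only (deposited adjusted p = 5.03e-08), and it was called lower when scaled by total counts, at -0.35. EEF1D had 0.56 ± 0.13 in the knockdown and -0.66 ± 0.21 after H2O2, each past the centred test only. EEF1E1, a scaffold part of the multisynthetase complex, had -0.12 ± 0.23 in the knockdown and -0.84 ± 0.24 after H2O2, the second past the centred test only.

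EEF2KMT, the methyltransferase of eEF2, fell in the knockdown by 1.48 ± 0.29 or 2.78-fold (adjusted p = 5.01e-06), with 51 mean counts against 176 in H2O2-treated wild type cells. Untreated wild type cells had 161. The ALG1 gene overlaps 29.3% of its exon bases on the opposite strand and had 210, 358 and 273 mean counts in knockdown, H2O2-treated and untreated wild type cells, and the strand setting of the counting is not given. EEF2K, the kinase that inhibits eEF2, had log2 changes of -0.38 ± 0.16 in the knockdown and 0.50 ± 0.24 after H2O2, neither called.

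**Figure D2:**
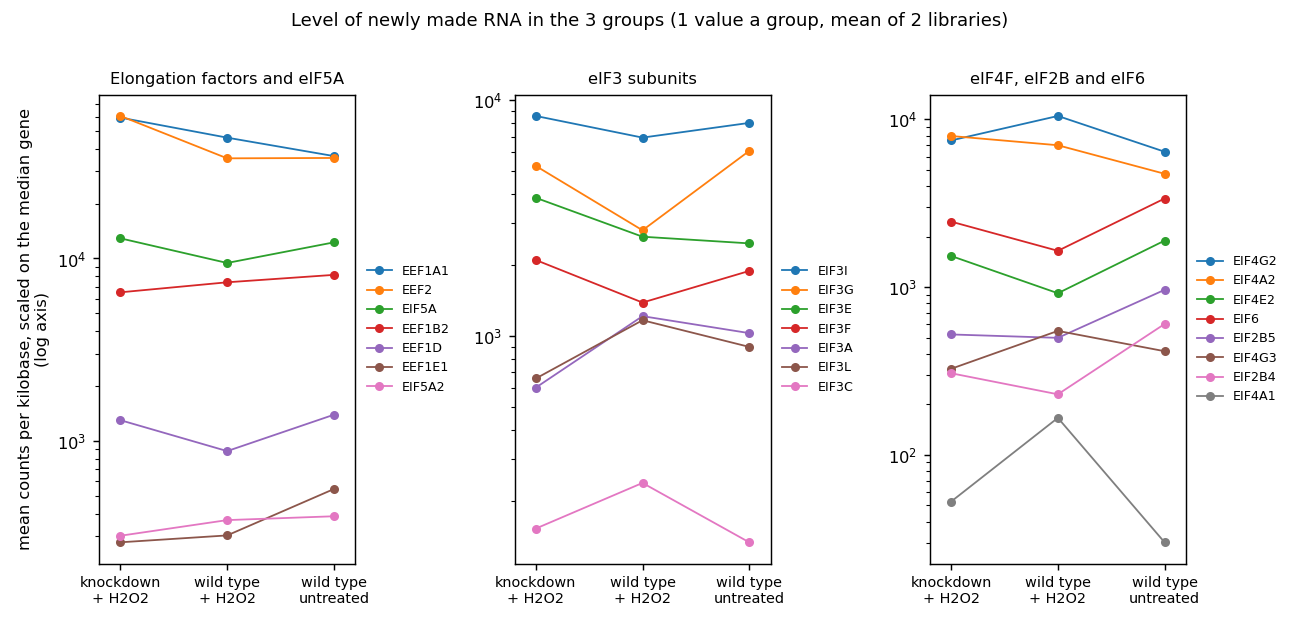
Mean counts per kilobase, scaled on the median gene (y axis, log scale), of 22 members in H2O2-treated knockdown, H2O2-treated wild type and untreated wild type cells (x axis); each point is 1 pooled value of 2 libraries, so there are no error bars. EEF2 stands at 60425 in the knockdown, against 35400 and 35567 in the wild type groups, while EIF3G, EIF4E2 and EIF6 are lowest in H2O2-treated wild type cells.

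The 14 eIF3 genes, all tested, moved in both directions within 1 complex. In the knockdown 3 rose and 3 fell, and after H2O2 2 rose and 2 fell. Among all genes with at least 50 mean counts, 10.1% were called higher and 21.5% lower in the knockdown, and 21.2% and 13.4% after H2O2. The eIF3 counts are thus a description of the list, not a trait set apart from other genes. The subunit EIF3G (chr19:10115017-10119918, minus strand), which binds RNA and takes part in scanning, had 3283.5 mean counts in knockdown, 2143.5 in H2O2-treated wild type and 3803 in untreated wild type cells. The H2O2-treated wild type value was the lowest of the 3. EIF3G rose 1.87-fold in the knockdown (log2 0.91 ± 0.10, adjusted p = 1.25e-19) and fell 2.17-fold after H2O2 (log2 -1.12 ± 0.20, adjusted p = 6.28e-07).

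EIF3A, the largest subunit and a scaffold of the complex, was lower in the knockdown. It had 2028.5 mean counts in knockdown cells and 4986.5 in H2O2-treated wild type cells, a 2.01-fold fall (log2 -1.01 ± 0.10, adjusted p = 2.98e-23), while untreated wild type cells had 3454. After H2O2 its log2 change was 0.24 ± 0.20 (adjusted p = 0.395). EIF3L, a PCI-domain subunit, fell 1.76-fold in the knockdown (log2 -0.82 ± 0.14, adjusted p = 3.89e-08), with mean counts of 645 against 1394 in H2O2-treated wild type and 878.5 in untreated wild type cells. Of its exon bases 41.1% are shared with RP5-1014D13.2 on the same strand, which had 53.5 mean counts in knockdown, 40.5 in H2O2-treated wild type and 36.5 in untreated wild type cells.

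EIF3C and EIF3CL encode near-identical copies of a core subunit, so their counts are uncertain. EIF3C had 211 mean counts in knockdown, 403 in H2O2-treated wild type and 184.5 in untreated wild type cells. It fell 1.56-fold in the knockdown (log2 -0.64 ± 0.19, adjusted p = 0.00301) and rose 1.78-fold after H2O2 (log2 0.83 ± 0.26, adjusted p = 0.00686). EIF3CL had 135 mean counts in knockdown, 186.5 in H2O2-treated wild type and 76.5 in untreated wild type cells. It rose 1.98-fold after H2O2 (log2 0.98 ± 0.30, adjusted p = 0.00443) and had a log2 change of -0.17 ± 0.27 in the knockdown (adjusted p = 0.712). Whether the pair differ in the knockdown was not tested.

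EIF3F, one of the paired MPN-fold subunits, had 3056.5 mean counts in knockdown, 2468.5 in H2O2-treated wild type and 2747.5 in untreated wild type cells, and it rose 1.51-fold in the knockdown (log2 0.60 ± 0.09, adjusted p = 2.98e-09). EIF3E, of the PCI-domain core, had 2639 mean counts in knockdown, 2208.5 in H2O2-treated wild type and 1691.5 in untreated wild type cells. It rose 1.46-fold in the knockdown (log2 0.55 ± 0.09, adjusted p = 1.09e-07, deposited adjusted p = 0.0225). Neither was called after H2O2, with log2 changes of -0.45 ± 0.20 for EIF3F and 0.09 ± 0.20 for EIF3E. EIF3K fell after H2O2 by 0.81 ± 0.21 on the log2 scale (adjusted p = 0.000673) and had 0.38 ± 0.12 in the knockdown, past the centred test only. The other subunits, EIF3B, EIF3D, EIF3H, EIF3I, EIF3J and EIF3M, were called in neither comparison. Of these, EIF3B, EIF3D and EIF3I passed the centred test alone in the knockdown, at 0.29 to 0.33. After H2O2 EIF3D passed the centred test alone in the other direction, with -0.63 ± 0.20 (adjusted p = 0.00651).

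The 3 subunits of eIF2 all fell in the knockdown and none was called after H2O2. Of all genes with at least 50 mean counts, 21.5% were called lower in the knockdown. EIF2S1 encodes the alpha subunit, whose phosphorylation by the eIF2 kinases lowers initiation. It had 973.5 mean counts in knockdown and 1574 in H2O2-treated wild type cells (log2 -0.40 ± 0.11, adjusted p = 0.00152), with 1275 in untreated wild type cells. EIF2S2, the beta subunit, fell by 0.28 ± 0.09 (adjusted p = 0.00611). EIF2S3, the gamma subunit that holds GTP and tRNA, fell by 0.55 ± 0.09 (adjusted p = 4.76e-08), with 1513 mean counts in knockdown, 2712.5 in H2O2-treated wild type and 1676.5 in untreated wild type cells. Its copy EIF2S3L had 1 mean count in knockdown, 2.5 in H2O2-treated wild type and 0 in untreated wild type cells. EIF2A and EIF2D, initiation factors outside the eIF2 complex, were not called in either comparison. Under a fold minimum of 1.5 none of the 3 subunits was called.

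The 5 subunits of eIF2B, the exchange factor of eIF2, all lay below the median gene after H2O2, with a median log2 change of -0.70. Of these 2 fell, where 13.4% of all genes with at least 50 mean counts were called lower. EIF2B4 (chr2:27364352-27370486, minus strand), the delta subunit, had 374 mean counts in H2O2-treated and 802 in untreated wild type cells. The fall was 2.62-fold (log2 -1.39 ± 0.21, adjusted p = 1.53e-09), the largest among the members after H2O2. Knockdown cells had 408 mean counts and a log2 change of 0.42 ± 0.16, past the centred test only. EIF2B5, the catalytic epsilon subunit, had 1170 mean counts in H2O2-treated and 1848 in untreated wild type cells, a 1.93-fold fall (log2 -0.95 ± 0.21, adjusted p = 6.36e-05). EIF2B1, EIF2B2 and EIF2B3 had log2 changes of -0.24, -0.70 and -0.33 after H2O2 and were not called. In the knockdown EIF2B3, the gamma subunit, rose 1.66-fold (log2 0.73 ± 0.15, adjusted p = 1.12e-05, deposited adjusted p = 0.0122). It had 509 mean counts there, against 374 in H2O2-treated and 385 in untreated wild type cells. The other 4 subunits were not called in the knockdown.

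Of the 11 tested cap-binding and eIF4 genes, 3 rose and 1 fell after H2O2, with a median log2 change of 0.35. In the knockdown 1 rose and 5 fell, with a median of -0.38. Without EIF4E3, which had few counts and was not called, the medians were 0.30 after H2O2 and -0.25 in the knockdown. Shares over all genes with at least 50 mean counts were 21.2% higher and 13.4% lower after H2O2, and 10.1% and 21.5% in the knockdown. EIF4A1 (chr17:7572706-7579005, plus strand), the RNA helicase of eIF4F, had the largest changes of any member but few counts: 35 in knockdown, 135 in H2O2-treated wild type and 20 in untreated wild type cells. It fell 3.09-fold in the knockdown (log2 -1.63 ± 0.34, adjusted p = 1.23e-05) and rose 5.29-fold after H2O2 (log2 2.40 ± 0.39, adjusted p = 1.2e-08). Of its exon bases, 41.1% are shared on the same strand with RP11-186B7.4 and 29.8% with SENP3-EIF4A1. These partners had at most 3 and 7 mean counts in any group. How the counting treated reads that fit more than 1 gene is not given, so both the level and the changes of EIF4A1 are reported as uncertain.

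EIF4A2, the paralogous helicase, had 7152.5 mean counts in knockdown, 7710.5 in H2O2-treated wild type and 4260.5 in untreated wild type cells. Per kilobase its level was 7003 in H2O2-treated wild type cells, where that of EIF4A1 was 166. EIF4A2 rose 1.48-fold after H2O2 (log2 0.56 ± 0.19, adjusted p = 0.0136) and had 0.18 ± 0.08 in the knockdown (adjusted p = 0.0591). EIF4A3, the related helicase of the exon junction complex, had 0.22 ± 0.10 in the knockdown and 0.11 ± 0.20 after H2O2, neither called.

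EIF4G2, a scaffold related to eIF4G that does not bind eIF4E, was highest in H2O2-treated wild type cells. It had 7742 mean counts in knockdown, 13249 in H2O2-treated wild type and 6632 in untreated wild type cells. This was a 1.40-fold fall in the knockdown (log2 -0.48 ± 0.08, adjusted p = 5.88e-09) and a 1.63-fold rise after H2O2 (log2 0.71 ± 0.20, adjusted p = 0.00214). EIF4G3, a scaffold that binds eIF4E, fell 1.68-fold in the knockdown (log2 -0.75 ± 0.12, adjusted p = 5.56e-09), with 667.5 mean counts against 1373.5 in H2O2-treated and 849.5 in untreated wild type cells. Its paralogue EIF4G1, the main scaffold of eIF4F, had -0.00 ± 0.09 in the knockdown (adjusted p = 0.988) and 0.26 ± 0.20 after H2O2 (adjusted p = 0.351). The difference between these paralogues was not tested.

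The cap-binding protein gene EIF4E fell in the knockdown by 0.38 ± 0.13 on the log2 scale (adjusted p = 0.0167) and had 0.35 ± 0.23 after H2O2 (adjusted p = 0.253). EIF4E2, a cap-binding homologue that represses translation, had 1507 mean counts in knockdown, 1106 in H2O2-treated wild type and 1860.5 in untreated wild type cells, with the H2O2-treated wild type value the lowest. EIF4E2 rose 1.67-fold in the knockdown (log2 0.74 ± 0.11, adjusted p = 5.6e-11) and fell 2.06-fold after H2O2 (log2 -1.04 ± 0.20, adjusted p = 2.84e-06). EIF4ENIF1, which carries eIF4E into the nucleus, fell in the knockdown by 0.64 ± 0.19 (adjusted p = 0.0037). The helicase cofactors EIF4B and EIF4H were called in neither comparison.

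A group of 7 genes was listed for start site scanning and subunit joining, among them EIF1AD, which is not itself such a factor. EIF6, which keeps free large ribosomal subunits from joining small ones, rose in the knockdown and fell after H2O2. It had 1801 mean counts in knockdown, 1476.5 in H2O2-treated wild type and 2472.5 in untreated wild type cells. The changes were 1.49-fold higher in the knockdown (log2 0.58 ± 0.10, adjusted p = 4.91e-08, deposited adjusted p = 0.0121) and 2.05-fold lower after H2O2 (log2 -1.03 ± 0.20, adjusted p = 2.75e-06). EIF1AX, one of the scanning factors, had 1378.5 mean counts in knockdown, 2170 in H2O2-treated wild type and 1221.5 in untreated wild type cells. It fell by 0.36 ± 0.10 in the knockdown (adjusted p = 0.00137) and rose by 0.54 ± 0.21 after H2O2 (adjusted p = 0.0321).

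EIF5B, the GTPase of subunit joining, fell 1.62-fold in the knockdown (log2 -0.70 ± 0.11, adjusted p = 1.77e-08), with 696.5 mean counts against 1385 in H2O2-treated and 1353 in untreated wild type cells. EIF5, which makes eIF2 hydrolyse its GTP, fell by 0.39 ± 0.09 in the knockdown (adjusted p = 0.000221), with 1530.5 mean counts against 2458.5 in H2O2-treated and 3052 in untreated wild type cells. EIF1, which guards the choice of start codon, was not called, with 0.20 ± 0.07 in the knockdown and -0.10 ± 0.20 after H2O2. Its paralogue EIF1B was not called either, with -0.11 ± 0.14 in the knockdown and -0.75 ± 0.21 after H2O2. EIF1AD had -0.22 ± 0.17 in the knockdown and -0.69 ± 0.23 after H2O2. After H2O2 both passed the centred test only (adjusted p = 0.0017 for EIF1B and 0.0108 for EIF1AD), as did EIF5 (-0.60 ± 0.21, adjusted p = 0.0161).

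EIF5A, which helps ribosomes through difficult stretches such as runs of proline, was not called in either comparison. Its mean counts were 11699 in knockdown, 10490.5 in H2O2-treated wild type and 11121 in untreated wild type cells. The log2 change of 0.45 ± 0.08 in the knockdown passed the centred test (adjusted p = 1.04e-07) but not the deposited one. Its paralogue EIF5A2 had 380.5 mean counts in knockdown, 567 in H2O2-treated wild type and 486.5 in untreated wild type cells, with log2 changes of -0.28 ± 0.17 in the knockdown and -0.07 ± 0.23 after H2O2.

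Set side by side, the EEF and eIF3 genes and the other EIF genes had similar medians after H2O2 and medians of opposite sign in the knockdown. In the knockdown 4 of 21 tested EEF and eIF3 genes rose and 4 fell, with a median log2 change of 0.23. Of 32 other EIF genes 3 rose and 11 fell, with a median of -0.12. Over all tested genes 6.81% were called higher and 14.4% lower in the knockdown, and 10.1% and 21.5% of those with at least 50 mean counts. Uncentred, as deposited, the EEF and eIF3 median in the knockdown was -0.06 and that of the other EIF genes was -0.41, so the sign of the first depends on the scaling. Scaled by total counts, both medians in the knockdown were lower than after centring, and their signs stayed opposite. After H2O2 the counts were 2 higher and 2 lower of 21, with a median of -0.12, and 4 higher and 4 lower of 32, with a median of -0.09, where 16.6% of all tested genes were called higher and 9.6% lower. These are descriptions of the lists, and the difference between them was not tested.

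The 12 tested members with a TOP start had a median log2 change of 0.28 in the knockdown, with 2 higher (EEF2 and EIF3F) and 1 lower (EIF2S3). Over all tested genes 6.81% were called higher and 14.4% lower in the knockdown, and 16.6% and 9.6% after H2O2. For the TOP starts in the knockdown the centred test alone gave 6 higher and 1 lower and the deposited test alone 2 higher and 4 lower. The median of their deposited changes was -0.015, so the direction of this set turned with the scaling. The 32 tested members with another start had a median of -0.12, with 3 higher and 10 lower. After H2O2 the medians were -0.15 for TOP starts and -0.11 for other starts, with 1 higher (EIF4A2) and 1 lower (EIF3K) among the first. A textbook list of 9 TOP translation factor genes, which shares members with the TOP starts, had 8 tested. In the knockdown 3 of them rose and none fell, with a median of 0.46 centred and 0.17 as deposited. The deposited test alone gave 3 higher and 2 lower, the centred test alone 5 higher and none lower. After H2O2 none of the list was called, with a median of -0.02. Of this list, EEF1D, EIF3E and EIF3H had no entry among the starts and so were in neither start class. EEF1G, untested, was placed with the other starts. In the knockdown EIF3E rose, and EEF1D (0.56) and EIF3H (0.23) were not called. The sequences shown for EEF2 and EIF2S3 both start with CTCTT, and their genes moved in opposite directions in the knockdown. The genes of cytosolic ribosomal proteins, the main class of TOP mRNAs, are given beside these: of 81 tested, 52 rose and 3 fell in the knockdown with a median of 0.61, and none rose and 39 fell after H2O2 with a median of -0.79.

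**Figure D3:**
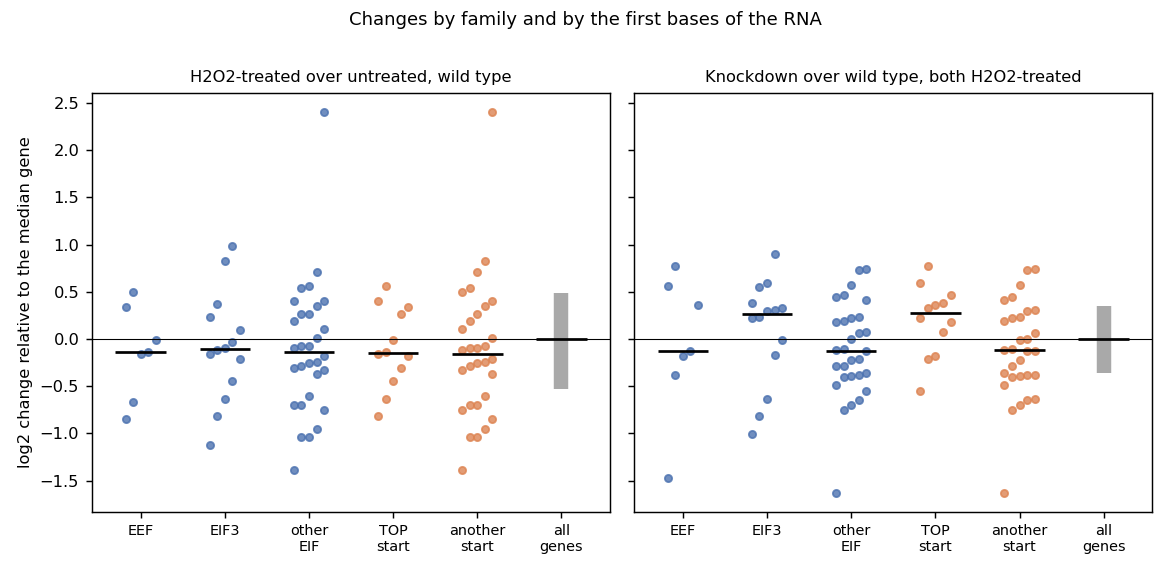
Log2 change relative to the median gene (y axis) of members with at least 50 mean counts, by family (blue) and by the start of the RNA (orange), for H2O2-treated over untreated wild type cells on the left and knockdown over wild type cells with H2O2 on the right. Each point is 1 gene, black lines are medians and the grey bar spans the quartiles of all genes; the eIF3 median is 0.26 in the knockdown, where that of the other EIF genes is -0.12.

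The comparisons share the H2O2-treated wild type libraries, which are the treated side of one and the control side of the other, so opposite signs in the pair are not independent. With that limit, EIF3G, EIF4E2 and EIF6 were called lower after H2O2 and higher in the knockdown, and EIF4A1, EIF3C, EIF4G2 and EIF1AX were called higher after H2O2 and lower in the knockdown. No member was called in the same direction in both, and 26 were called in neither. On the scale of counts per kilobase adjusted to the median gene, EIF3G had a level of 5258 in knockdown, 2806 in H2O2-treated wild type and 6090 in untreated wild type cells. EIF4G2 had levels of 7482 in knockdown, 10465 in H2O2-treated wild type and 6409 in untreated wild type cells. For all 7 of these genes the knockdown level lay between the levels of the wild type groups. Picking them by opposite calls already put the shared H2O2-treated wild type level at an extreme, so this pattern is a description only.

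Gene span and log2 change were weakly correlated in both comparisons, among the members and among all genes. Across the 51 members with at least 50 mean counts, Spearman's correlation between the genomic span of a gene and its log2 change was 0.29 after H2O2 and -0.24 in the knockdown. Across all genes it was 0.27 after H2O2 (11618 genes) and -0.24 in the knockdown (11570 genes). These are correlations across genes of the same libraries, which are not independent replicates, and are given as a description. In the knockdown the 14 members that span under 10 kb had a median log2 change of 0.27, and the 16 that span 30 kb or more had -0.29, beside medians of 0.23 and -0.10 over all genes of those spans. EIF4A1, at 6300 bases, and EIF2B3, at 136201 bases, lay far from the medians of their span class. With the trend of all genes with span removed, an alternative chosen after the data were seen, 7 members rose and 17 fell in the knockdown, EIF4E was no longer called, and EEF1B2, EIF1AD and EIF1B were. The same alternative gave EEF1A1 after H2O2 a log2 change of 0.63 (adjusted p = 0.00784) and added it to the called members.

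**Figure D4:**
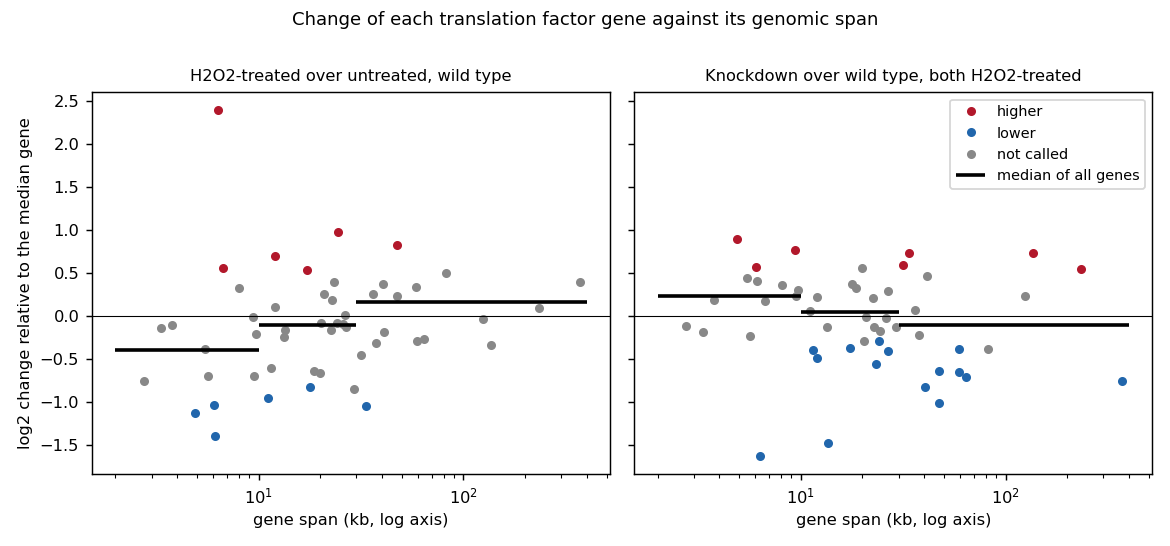
Log2 change relative to the median gene (y axis) against the genomic span of each of 51 members in kilobases (x axis, log scale), for H2O2-treated over untreated wild type cells on the left and knockdown over wild type cells with H2O2 on the right. Colours give the call, and black lines are the medians of all genes in each span class, which in the knockdown stand at 0.23 under 10 kb and -0.10 at 30 kb or more.

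Genes that regulate these factors were counted from lists of the pathway. Of 14 tested genes of cap control, 4 rose and 2 fell after H2O2, where 16.6% of all tested genes were called higher and 9.6% lower (21.2% and 13.4% of those with at least 50 mean counts). EIF4EBP1, the eIF4E-binding repressor that mTOR inactivates, fell by 1.41 ± 0.21 on the log2 scale (adjusted p = 8.01e-10), with 1188.5 mean counts in H2O2-treated and 2591 in untreated wild type cells. Its paralogue EIF4EBP2 rose by 0.60 ± 0.20 (adjusted p = 0.00952), with 3194 mean counts in H2O2-treated and 1724 in untreated wild type cells. PDCD4, an inhibitor of eIF4A, rose by 0.80 ± 0.26, PAIP1 by 0.52 ± 0.21 and PABPC1, the poly(A)-binding protein, by 0.49 ± 0.20, while the kinase gene RPS6KB2 fell by 1.06 ± 0.23. In the knockdown, where 21.2% of all tested genes were called, 1 of the 14 was: PABPC1 rose by 0.68 ± 0.08 (adjusted p = 5.6e-16).

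Of 9 tested genes for eIF2 kinases and the eIF2 phosphatase, 3 rose after H2O2 and 1 rose and 1 fell in the knockdown, beside the same shares over all genes. PPP1R15A (GADD34), the inducible subunit that directs phosphatase to eIF2 alpha, had 35413.5 mean counts in knockdown, 18814 in H2O2-treated wild type and 9499 in untreated wild type cells. It rose by 1.20 ± 0.08 on the log2 scale in the knockdown (adjusted p = 4.11e-52) and by 0.70 ± 0.20 after H2O2 (adjusted p = 0.00209). EIF2AK3 (PERK), the kinase of the endoplasmic reticulum, fell by 0.60 ± 0.22 in the knockdown (adjusted p = 0.0269) and rose by 0.78 ± 0.27 after H2O2 (adjusted p = 0.0157). EIF2AK1 (HRI), first known as the heme-regulated kinase, rose by 0.60 ± 0.22 after H2O2 (adjusted p = 0.0224) and was not called in the knockdown.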

How the data were processed

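Newly made RNA of RPE1 cells was measured in 6 libraries, grouped by the genotype and agent in their labels; the design text names 4sU-seq, and the labels give the molecule as total RNA. Per the submitters' processing notes, STAR 2.5, DESeq2, DESeq and build hg38 were used; their roles, the counting tool, its strand setting and the annotation are not given in the sources used here. The authors deposited 1 table per comparison with a signal value per gene and group, pooled over 2 libraries, a log2 fold change equal to the log2 ratio of those signals, and a p-value with its adjusted p. The unit of the signal is not stated; from its steps it equals the mean count plus 1, per base of gene length, times a constant.

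Mean counts were recovered with a whole-number length per gene, for 86.0% of genes the rounded mean transcript length of GENCODE 29. For 10 members without that match (EEF1A2, EIF2B5, EIF3F, EIF3G, EIF4A3, EIF4E1B, EIF4G1, EIF4G2, EIF4G3 and EIF6) the true counts may be a fixed multiple of those printed, with the same fold changes. The median fold change of tested genes that had 50 or more mean counts was subtracted, and the result was tested with the standard error implied by the deposited p-value. Where none could be computed (187 genes for H2O2, 243 for the knockdown), it was the running median of the 101 genes nearest in count. Tests used a normal distribution with Benjamini-Hochberg adjustment over all tested genes. The median implied standard error over genes with more than 500 mean counts was 0.21 after H2O2 and 0.11 in the knockdown on the log2 scale, and the depth of single libraries is unknown. Scripts ran in Python 3.11.15 with pandas 2.3.3, numpy 2.4.6 and scipy 1.17.1 and were tested on simulated data.

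Given in full are the 5 called members with the largest rise and the 5 with the largest fall in each comparison, paralogue pairs, and members called in opposite directions. The members, the gene lists and the rule were chosen with earlier results of these data known. Exon overlap was taken from GENCODE 29 and starts from RefSeq (GRCh38.p14), matched by symbol. Alternatives changed the call rule, scaling, filter, thresholds, membership and added count; those on standard error, gene span, shared sequence and settled length were chosen after the data were seen.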

Additional observations from a re-analysis of the deposited data

Results flagged for a closer look

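The rule left out 3 transcripts with more than 50 mean counts over the 3 groups that are neither kinases nor binding proteins, a signal outside the genes compared. EEF1A1P5, a pseudogene of EEF1A1, averaged 1732 mean counts over the groups, with 2148.5 in knockdown, 2000 in H2O2-treated wild type and 1048.5 in untreated wild type cells. It rose after H2O2 (log2 0.64 ± 0.22, adjusted p = 0.0151) and was not called in the knockdown (0.39 ± 0.29). EEF1A1P6 averaged 266 mean counts, with 351 in knockdown, 291.5 in H2O2-treated wild type and 155 in untreated wild type cells, and was called in neither comparison. EIF3J-AS1, antisense to EIF3J, averaged 243 mean counts, with 200.5 in knockdown, 286.5 in H2O2-treated wild type and 242 in untreated wild type cells, and was called in neither comparison. How many of these reads come from EEF1A1 and EIF3J themselves was not tested.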

How the results depend on the processing

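After H2O2 the count of called members was 12, 21 with the deposited adjusted p alone, 19 with the centred test alone, and between 8 and 13 under the other 8 alternatives. In the knockdown it was 22, 13 with a fold of at least 1.5, and between 17 and 33 under the others. The medians of all members, of EEF and eIF3 and of the other EIF genes after H2O2 were 0.20, 0.17 and 0.20 uncentred. In the knockdown they were -0.30, -0.059 and -0.41 uncentred and -0.18, 0.066 and -0.29 scaled by total counts; every other alternative left each median within the standard error of a single gene. EIF4B in the knockdown was the single member whose sign turned with a call, at -0.21 with the deposited adjusted p alone (adjusted p = 0.0324) against 0.08 after centring; the authors' fold changes differ from the centred ones by the shift of the median gene alone. An adjusted p under 0.01 ended the calls of EIF1AX, EIF3K and EIF4A2 after H2O2 and of EIF2B3, EIF3E, EIF4E and EIF6 in the knockdown. Leaving out single libraries was not run, since each group has 1 pooled value. No paired analysis was possible because the tables hold no value per library. Members with few counts have large standard errors, 0.27 to 0.39 for EIF4A1, EEF2KMT and EIF3CL, 0.59 for EIF5AL1 and 0.80 for EIF4E3, so smaller changes are not detectable there at this depth.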

Other observations

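Further genes of translation outside the naming rule were counted from pathway lists. Of 8 tested genes for termination, ribosome recycling and the modification of eIF5A, none rose and 3 fell in the knockdown, where 14.4% of all tested genes were called lower, and none rose and 2 fell after H2O2, where 9.6% were. The release factor gene GSPT1 fell in the knockdown by 0.50 ± 0.09 on the log2 scale (adjusted p = 9.95e-07), with 1552 mean counts against 2689 in H2O2-treated and 1669 in untreated wild type cells. ABCE1, the ATPase that splits ribosomes after termination, fell by 0.71 ± 0.11 (adjusted p = 8.97e-09), and DENR, a recycling factor, by 0.54 ± 0.11 (adjusted p = 7.55e-06). After H2O2 both enzymes that make hypusine on eIF5A fell: DHPS by 0.88 ± 0.21 (adjusted p = 0.000271) and DOHH by 1.03 ± 0.21 (adjusted p = 1.28e-05). EIF5A itself was not called.

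Of 10 tested mitochondrial translation factor genes, 1 rose and 2 fell in the knockdown and 1 rose after H2O2. Of all tested genes 21.2% were called in the knockdown and 26.2% after H2O2. TUFM, the mitochondrial counterpart of eEF1A, rose in the knockdown by 0.51 ± 0.09 (adjusted p = 2.58e-07), with 3051 mean counts against 2614 in H2O2-treated and 3323.5 in untreated wild type cells. MTIF2, the mitochondrial initiation factor, fell in the knockdown by 0.78 ± 0.23 (adjusted p = 0.00355) and MTRF1L, a release factor, by 0.60 ± 0.20 (adjusted p = 0.011). GFM2, which recycles mitochondrial ribosomes, rose after H2O2 by 0.73 ± 0.28 (adjusted p = 0.0321).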
